A study of Mus musculus with 6 samples.

Results

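Matricellular proteins are secreted into the matrix around cells, where most of them tune how cells attach, signal and assemble collagen rather than bearing load themselves. The mRNA levels of 10 genes for such proteins of bone and tendon were examined in bone cells of mice with and without glucocorticoid treatment. The genes were the thrombospondins Thbs1, Thbs2, Thbs3 and Thbs4, the related Comp, the tenascins Tnc and Tnn, periostin (Postn), osteonectin (Sparc) and its relative Sparcl1. They were found by matching Ensembl identifiers to these symbols, and 9 of the 10 were among the 29616 genes of the table. All 9 passed the filter on low values and were among the 17442 genes tested, whereas Thbs4 was not analysed here.

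RNA sequencing compared 3 control libraries with 3 libraries from mice treated with dexamethasone, a synthetic glucocorticoid that causes bone loss. The mice were of the C57BL/6 strain in both groups (wild-type C57BL/6J in the methods of the study), with no transgene named for these samples. Treatment started at 8 weeks of age and went on for 4 weeks, at a dose of 0.08 µg per g of body weight each day, and the controls of the study received saline. The labels call the material bone cells, and the methods and results of the study describe Osteocalcin-positive cells sorted from collagenase digests of femurs whose marrow had been flushed out. Whether a library came from 1 mouse or from pooled mice, and the sex of the mice, are not given in the sources used here. The p-values below therefore measure the spread between these libraries, which may be technical.

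Thrombospondins are large calcium-binding glycoproteins. Thbs1 and Thbs2 form trimers that bind the receptor CD47 and restrain vessel growth, and Thbs1 also activates latent TGF-β, whereas Thbs3, Thbs4 and Comp form pentamers found in cartilage, tendon and bone. Tenascins are modular proteins that interfere with the adhesion of cells to fibronectin, and Tnc marks developing bone, tendon and healing tissue. Postn is secreted at the periosteum and in loaded connective tissue, where it brings together collagen and the enzymes that crosslink it. Sparc binds collagen and calcium and is among the most abundant non-collagenous proteins of bone matrix, and Sparcl1 shares its domain structure.

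The libraries held 72596611 to 89910728 reads counted on genes, so that counting error was small for all members but Comp, which had 42 to 138 reads per library. Of the 8 osteoblast markers, 7 were called lower with dexamethasone, among them Runx2 with a log2 fold change of -1.75, and osteopontin (Spp1) was called higher. Osteocalcin (Bglap), whose protein was used for the sort and whose count is uncertain because of its near-identical copies, was at only 98.2 to 122 normalized counts in the control libraries and 9.54 to 15.1 in the dexamethasone libraries. The endothelial markers Cdh5 and Tie1, the cartilage matrix gene Matn1 and the muscle gene Myh4 had at most 3 reads in every library. In these bulk libraries, fewer cells of a type and less RNA per cell cannot be told apart.

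Of the abundant members, all but Postn were lower with dexamethasone. Thbs1, Tnc, Sparc, Comp and Thbs2 fell to between 21.0% and 44.1% of their control level, and Sparcl1 rose to 231.6%. A gene was called changed when its limma adjusted p was under 0.05 and its log2 fold change, dexamethasone minus control, was at least 1 in either direction. By this rule 5 of the 9 measured members were called lower, where 10.6% of all tested genes were, and 1 was called higher, where 11.7% of all tested genes were. By the limma adjusted p alone, 6 members were lower (35.2% of all tested genes) and 3 were higher (37.2% of all tested genes). The 3 control and 3 dexamethasone values did not overlap for any of the 9 members, as for 74.7% of all tested genes. The median log2 fold change was -1.18 over the members and 0.0007 over all tested genes.

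**Figure D1:**
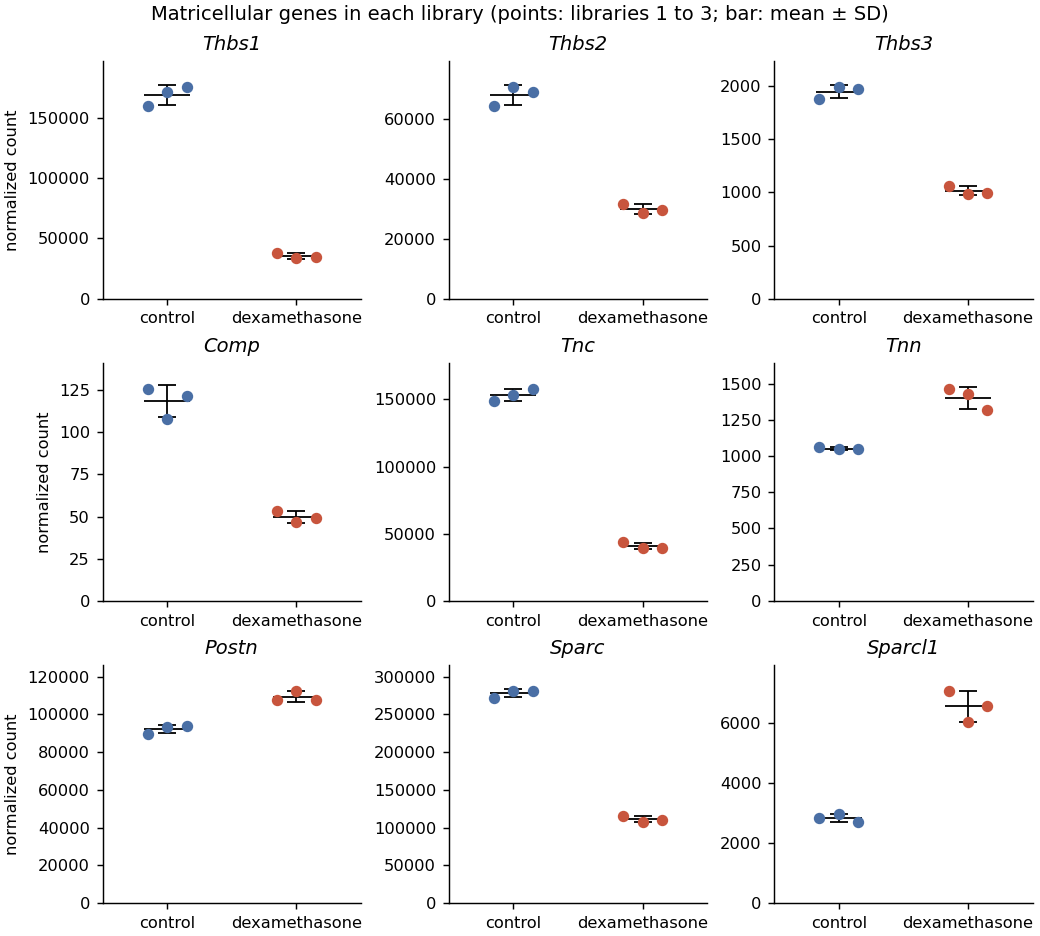
Normalized counts (vertical axes, each starting at 0) of the 9 measured matricellular genes in each control (blue) and dexamethasone (red) library, with the mean ± SD of 3 libraries as black bars. The groups are apart in every panel, with Thbs1 lower by the largest ratio (21.0% of control) and Sparcl1 higher by the largest ratio (231.6% of control).

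To show the sequence upstream of members that moved together and of the abundant member that did not, the 250 bases before the transcription start are given for Sparc, Tnc and Thbs2, which fell, and for Postn, which did not. They were read from RefSeq windows of build GRCm38.p6, while the reads were aligned to GRCm39 per the submitters' processing notes. Windows were given for Thbs2, Thbs3, Thbs4, Tnc, Tnn, Postn and Sparc. The start used for the window was 27 bases from the nearest annotated transcript start for Thbs2, 5 for Tnn, 2 for Postn and 0 for the others. Positions below are counted from the start used for the window. Capitals mark matches on either strand to the glucocorticoid receptor half-site AGAACA or the TATA box TATAAA, and the windows were also searched for the RUNX motif TGTGGT, the TEAD motif GGAATG and the AP-1 motif TGANTCA.
Sparc: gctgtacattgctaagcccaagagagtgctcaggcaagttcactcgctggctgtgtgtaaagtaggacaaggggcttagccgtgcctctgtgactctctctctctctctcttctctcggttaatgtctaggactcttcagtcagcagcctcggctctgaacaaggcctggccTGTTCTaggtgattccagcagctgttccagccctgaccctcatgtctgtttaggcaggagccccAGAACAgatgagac
Tnc: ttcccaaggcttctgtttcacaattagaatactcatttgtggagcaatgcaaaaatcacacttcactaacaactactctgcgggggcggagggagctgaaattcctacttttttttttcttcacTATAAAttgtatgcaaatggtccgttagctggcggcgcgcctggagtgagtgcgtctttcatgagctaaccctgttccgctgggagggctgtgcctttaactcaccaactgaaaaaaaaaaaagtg
Thbs2: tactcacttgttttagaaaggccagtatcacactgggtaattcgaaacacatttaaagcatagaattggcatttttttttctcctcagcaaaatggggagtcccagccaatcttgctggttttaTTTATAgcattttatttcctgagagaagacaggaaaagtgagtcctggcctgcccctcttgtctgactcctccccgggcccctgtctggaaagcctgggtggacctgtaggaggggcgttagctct
Postn: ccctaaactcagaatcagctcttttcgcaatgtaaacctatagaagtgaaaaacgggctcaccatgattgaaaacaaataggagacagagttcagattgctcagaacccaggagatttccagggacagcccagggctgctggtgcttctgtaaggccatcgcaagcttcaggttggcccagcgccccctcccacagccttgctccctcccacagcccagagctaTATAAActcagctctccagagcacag
The Sparc window, chr11:55420081-55420330 on the minus strand, held 2 half-sites, starting 78 and 14 bases before the start. At least 2 such matches were present in 1.84% of 27025 windows of the same length and at least 1 in 16.2%. The Tnc window, chr4:64047016-64047265 on the minus strand, and the Thbs2 window, chr17:14694263-14694512 on the minus strand, each held a TATAAA match starting 126 bases before the start, on the opposite strand for Thbs2. The Postn window, chr3:54360857-54361106 on the plus strand, held TATAAA 26 bases before the start, and 13.0% of all windows held that motif. None of these 4 windows matched the RUNX, TEAD or AP-1 motif, which 14.2%, 12.6% and 6.87% of all windows did. Of the windows not printed, that of Tnn, which rose, held a half-site 234 bases and a TEAD match 160 bases before the start. The Thbs4 window held TEAD matches at 197 and 192 bases, and the window of Thbs3, which fell, held none of the motifs. At least 2 TEAD matches were present in 1.02% of all windows. The shares of windows given here make no allowance for the several motifs and windows searched. These matches describe letters, and the binding of no factor was measured.

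Among the thrombospondins, Thbs1 (ENSMUSG00000040152) had the largest change of all members. Its normalized counts were 159259, 171377 and 175678 in control replicates 1 to 3 and 37960, 33816 and 34561 in dexamethasone replicates 1 to 3. The highest treated library was thus well under the lowest control library. Thbs1 fell from 168771 ± 8514 (SD, n = 3) to 35446 ± 2209 (SD, n = 3), a log2 fold change of -2.25 (standard error 0.0476, 95% interval -2.35 to -2.15, limma adjusted p = 5.83e-23). Among the 17442 tested genes it had rank 332 by size of decrease.

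Thbs2 (ENSMUSG00000023885), which binds the protease MMP2 and is taken up with it through the receptor LRP1, was at 64157, 70639 and 68692 normalized counts in the control libraries. It was at 31648, 28648 and 29515 in the dexamethasone libraries, each under 50% of every control value. The fall was from 67829 ± 3326 (SD, n = 3) to 29937 ± 1544 (SD, n = 3), a log2 fold change of -1.18 (standard error 0.0434, 95% interval -1.27 to -1.09, limma adjusted p = 5.92e-18). The intervals of the Thbs1 and Thbs2 fold changes were apart by more than 0.8 on the log2 scale.

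Thbs3 (ENSMUSG00000028047), a pentamer-forming member of skeletal tissue, had 1881, 1996 and 1971 normalized counts in the control libraries and 1064, 985 and 999 in the dexamethasone libraries. The groups did not overlap, and the mean was 52.1% of control. Its log2 fold change of -0.94 (standard error 0.05, 95% interval -1.04 to -0.84, limma adjusted p = 1.22e-14) was just short of the cut-off of 1. It passed the cut-off with library totals made equal (-1.05) and after quantile normalization (-1.04).

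Comp (ENSMUSG00000031849), which binds fibrillar collagen in tendon and cartilage, was the scarcest member. It was at 126, 108 and 121 normalized counts in the control libraries (137, 110 and 138 reads) and 53.4, 46.9 and 48.8 in the dexamethasone libraries (56, 43 and 42 reads). The treated values lay close together, at under 50% of each control value. The mean fell from 118 ± 9.44 (SD, n = 3) to 49.7 ± 3.36 (SD, n = 3), a log2 fold change of -1.23 with a wider interval than for the other members (standard error 0.164, 95% interval -1.57 to -0.89, limma adjusted p = 3.17e-07). A gene with so few reads is left out when a mean of 100 normalized counts is required.

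Because Thbs1 fell further than the other thrombospondins, the composition of the family differed between the groups. Levels were compared between genes as normalized counts per kilobase of the longest annotated transcript. Thbs1 made up 70.5%, 70.1% and 71.1% of the summed level of Thbs1, Thbs2, Thbs3 and Comp in control replicates 1 to 3, against 53.4%, 53.0% and 52.8% in dexamethasone replicates 1 to 3. The share of Thbs1 was lower by 17.5 percentage points and that of Thbs2 higher by 16.4, from 28.1% ± 0.529 (SD, n = 3) to 44.5% ± 0.285 (SD, n = 3). Thbs3 went from 1.18% to 2.21% and Comp from 0.120% to 0.180%. For each of the 4 shares the groups were fully separated, and the exact two-sided permutation test gave p = 0.1 (0.1 after Benjamini-Hochberg adjustment over the 4 shares), the smallest p that 3 against 3 libraries allow. The per-kilobase ratio of Thbs1 to Thbs2, a measure chosen after the values were seen, was 2.50, 2.45 and 2.58 in the control libraries and 1.21, 1.19 and 1.18 in the dexamethasone libraries.

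**Figure D2:**
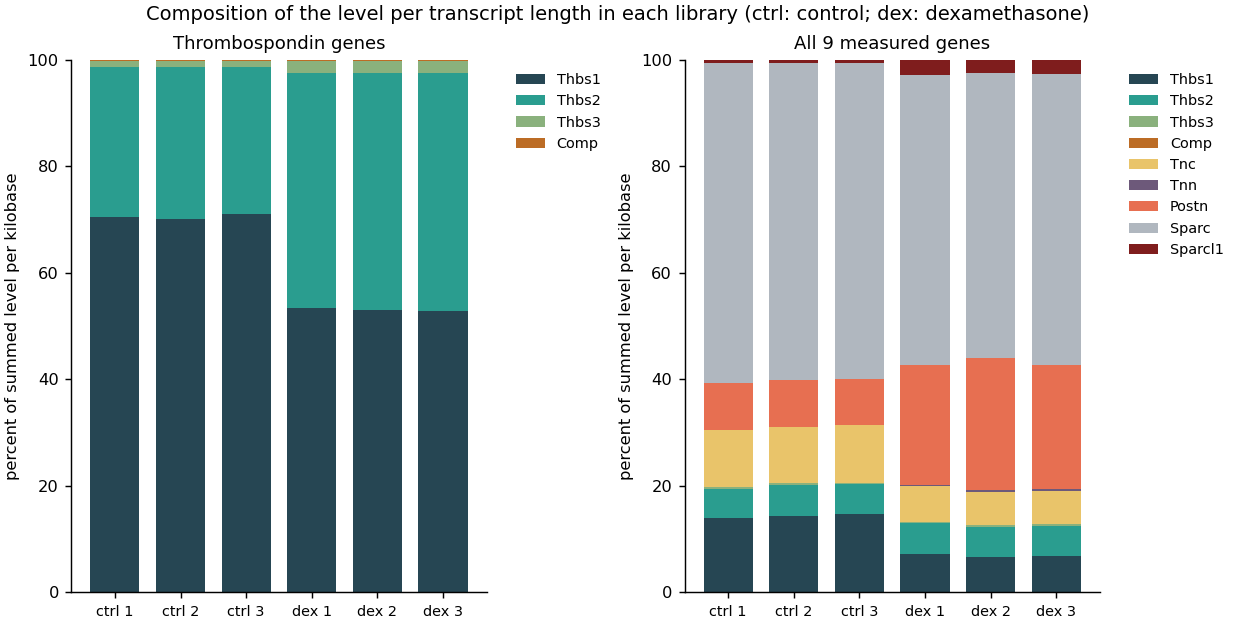
Share of each gene in the summed level per kilobase of transcript (vertical axis, percent) in control (ctrl) and dexamethasone (dex) libraries 1 to 3, for the 4 thrombospondin genes (left) and all 9 measured genes (right). Thbs1 makes up 70.1% to 71.1% of the thrombospondin level in the control libraries and 52.8% to 53.4% in the dexamethasone libraries, and the Postn band is wider in the dexamethasone libraries.

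The tenascins moved in opposite directions. Tnc (ENSMUSG00000028364) was at 148948, 153137 and 158037 normalized counts in the control libraries and 43483, 39214 and 39529 in the dexamethasone libraries. Every treated library was at less than 30% of every control library. Tnc fell from 153374 ± 4549 (SD, n = 3) to 40742 ± 2379 (SD, n = 3), a log2 fold change of -1.91 (standard error 0.0449, 95% interval -2.01 to -1.82, limma adjusted p = 5.06e-22), rank 493 by size of decrease. Its upstream window is among those printed above.

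Tnn (ENSMUSG00000026725) encodes tenascin-W, a tenascin of periosteum and developing bone. Its values were 1061, 1048 and 1046 normalized counts in the control libraries, the tightest group of any member, and 1466, 1426 and 1320 in the dexamethasone libraries. The treated values were all higher, at a mean of 133.5% of control. The log2 fold change of 0.42 (standard error 0.0526, 95% interval 0.31 to 0.52, limma adjusted p = 1.45e-07) was under the cut-off for a call. The ratio of Tnc to Tnn per kilobase, also chosen after the values were seen, was 114.9, 119.6 and 123.7 in the control libraries and 24.3, 22.5 and 24.5 in the dexamethasone libraries.

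Postn (ENSMUSG00000027750) was the only abundant member that was not lower. It had 89836, 93213 and 93666 normalized counts in the control libraries and 107629, 112638 and 107776 in the dexamethasone libraries. The lowest treated value was above the highest control value, but the difference was small. Its mean was 92239 ± 2093 (SD, n = 3) against 109348 ± 2851 (SD, n = 3), 118.5% of control, with a log2 fold change of 0.25 (standard error 0.0423, 95% interval 0.16 to 0.33, limma adjusted p = 1.41e-05), under the cut-off. The value was 0.13 with library totals made equal, a scaling that moved the median of all tested genes to -0.11.

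**Figure D3:**
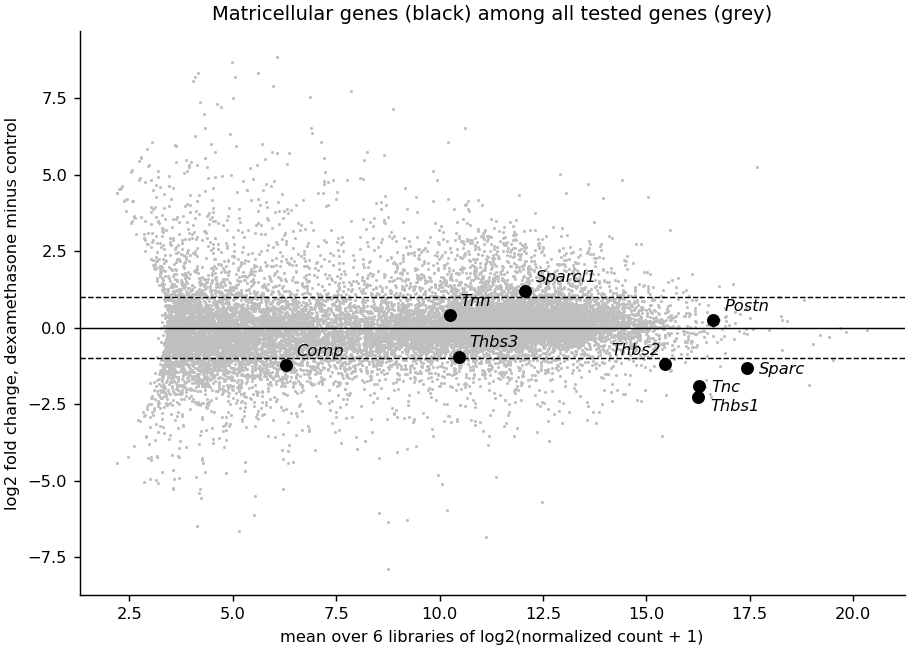
Log2 fold change, dexamethasone minus control (vertical axis), against the mean over the 6 libraries of log2(normalized count + 1) (horizontal axis) for the 17442 tested genes (grey) and the 9 measured matricellular genes (black). The dashed lines mark the cut-off of 1 in each direction, and 5 members lie under the lower line while Sparcl1, at 1.21, lies above the upper one.

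Sparc (ENSMUSG00000018593) was the most abundant member in both groups and lost the most reads. It was at 271961, 281153 and 281603 normalized counts in the control libraries and 115399, 107381 and 110480 in the dexamethasone libraries. All treated values were under 45% of all control values. Sparc fell from 278239 ± 5441 (SD, n = 3) to 111087 ± 4043 (SD, n = 3), a log2 fold change of -1.33 (standard error 0.0477, 95% interval -1.42 to -1.23, limma adjusted p = 3.78e-18). Its share of all counted reads was 0.358% on average in the control libraries and 0.132% in the dexamethasone libraries. The 9 members together made up 0.971%, 0.976% and 1.01% of the reads of the control libraries and 0.403%, 0.401% and 0.392% of those of the dexamethasone libraries.

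Sparcl1 (ENSMUSG00000029309), also called hevin and known from vessel walls, muscle and brain, was the only member called higher. Its normalized counts were 2844, 2955 and 2692 in the control libraries and 7076, 6032 and 6560 in the dexamethasone libraries. The lowest treated library was more than 2-fold above the highest control library. Sparcl1 rose from 2830 ± 132 (SD, n = 3) to 6556 ± 522 (SD, n = 3), a log2 fold change of 1.21 (standard error 0.0481, 95% interval 1.11 to 1.31, limma adjusted p = 2.96e-17), rank 1621 by size of increase. Over all alternatives its fold change was between 1.03 and 1.27, so that the call was kept in each.

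With one relative falling and the other rising, the balance of Sparc and Sparcl1 shifted. The per-kilobase ratio of Sparc to Sparcl1 was 114.7, 114.1 and 125.5 in the control libraries and 19.6, 21.4 and 20.2 in the dexamethasone libraries. The difference in mean log2 ratio was -2.53, with SDs of 0.0771 and 0.0639 (n = 3 each), and the groups were fully separated (exact two-sided permutation test, p = 0.1, the smallest possible). Sparc remained the more abundant of the pair in every library. The size of the ratio depends on the transcript lengths used, while the difference in log2 ratio does not.

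The order of the members by level per kilobase also differed between the groups. In the control libraries it was Sparc (120973 normalized counts per kilobase), Thbs1 (28860), Tnc (21584), Postn (17660), Thbs2 (11506), Sparcl1 (1026), Thbs3 (483), Tnn (181) and Comp (48.9), and no neighbours in this order overlapped in range. In the dexamethasone libraries Sparc (48299) was followed by Postn (20936), Thbs1 (6061), Tnc (5733), Thbs2 (5078), Sparcl1 (2376), Thbs3 (252), Tnn (241) and Comp (20.6). There the ranges of Thbs1 and Tnc overlapped, as did those of Thbs3 and Tnn. Postn thus moved from the fourth place to the second without a called change of its own. In the order of all 17442 tested genes by level per kilobase, Sparc went from rank 14 to 44, Thbs1 from 102 to 679, Tnc from 146 to 743 and Thbs2 from 290 to 867. Postn went from rank 181 to 150 and Sparcl1 from 4706 to 2279.

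**Figure D4:**
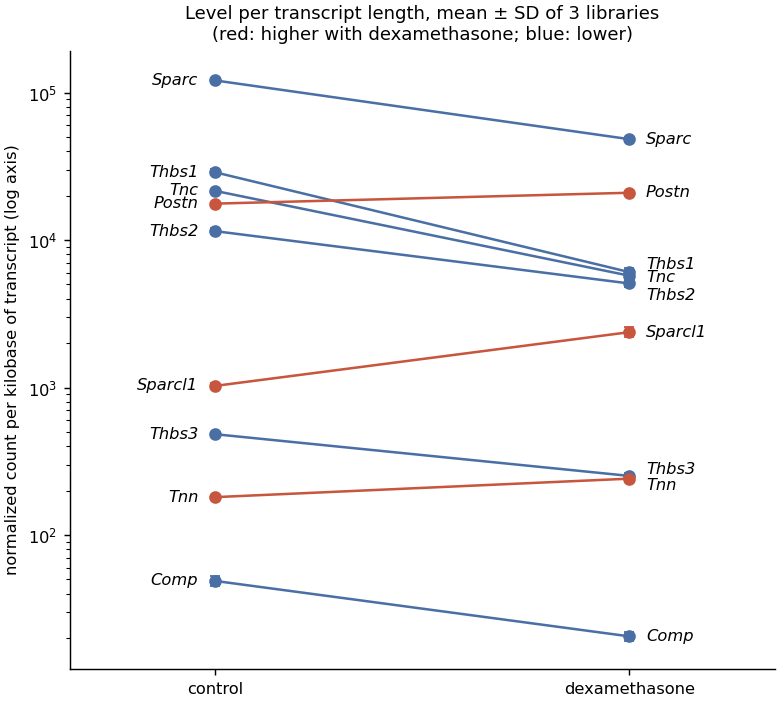
Mean ± SD of 3 libraries of the level per transcript length (vertical log axis, normalized counts per kilobase) of the 9 measured genes in the control and dexamethasone libraries. Lines join the group means, blue for lower and red for higher with dexamethasone. Postn stands below Thbs1 and Tnc in the control libraries and above both in the dexamethasone libraries.

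Set against the sum of all 9 members per kilobase, a description chosen after the values were seen, the mean share of Postn was 8.73% in the control and 23.5% in the dexamethasone libraries. Sparc was at 59.8% and 54.3%, Thbs1 at 14.3% and 6.81%, Tnc at 10.7% and 6.44%, and Sparcl1 at 0.507% and 2.67%. The share of Thbs2 was nearly the same in the groups, at 5.69% and 5.70%, because its fold change was close to that of the sum. These shares depend on the length used and were computed with the longest transcript only. That of Sparc has 2300 bases, against 3788 for all its annotated exons together, and that of Postn 5223 against 8702.

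Within the dexamethasone group the members that were lower shared one order of libraries. Replicate 1 had the highest and replicate 2 the lowest value of its group for each of the 6 members that were lower, while over all tested genes replicate 1 was highest for 47.8% and replicate 2 lowest for 44.7%. In the control group, replicate 1 was lowest for 5 of these 6 members, against 47.3% of all tested genes. The order in the dexamethasone group was not particular to the members. Col3a1, Col1a2, Mmp2 and Ccn3, which also fell, had it too, while Col1a1 was lowest in replicate 3. The differences of the members within groups were small beside those between groups, with coefficients of variation of 0.799% to 7.99% in the control and 2.61% to 7.96% in the dexamethasone libraries.

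By the likeness of their 6 centred log2 values, the 3 genes nearest to Thbs1 among 11916 candidates were Col12a1 (root mean square distance 0.0270), Lrp4 (0.0323) and Fzd2 (0.0463). Col12a1 encodes a fibril-associated collagen of tendon and ligament, Lrp4 a receptor that binds sclerostin, and Fzd2 a Wnt receptor. Their log2 fold changes were -2.25, -2.24 and -2.30. The nearest genes to Sparcl1 were Abtb2 (0.0203), the neuronal early-response gene Arc (0.0332) and the NAD-synthesis gene Nmnat2 (0.0376), with log2 fold changes of 1.21, 1.26 and 1.20. Genes near by this distance must have like fold changes, so these fold changes restate how the genes were chosen.

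Of 20 other genes for matricellular proteins, 16 were tested, 4 of them were called higher and 5 lower, and the median log2 fold change was -0.23. By mean level, the leading genes of this list were Spp1, Fstl1 and Ccn1. Spp1, which encodes the mineral-binding phosphoprotein osteopontin, rose with a log2 fold change equal to 5.25 (limma adjusted p = 1.43e-29), its mean being 33595 ± 988 (SD, n = 3) normalized counts in the control and 1279670 ± 29571 (SD, n = 3) in the dexamethasone libraries. This single gene thus changed far more than any of the 9 members. Fstl1, which shares the follistatin-like domain of Sparc, had a log2 fold change equal to -0.33 (limma adjusted p = 5.50e-08), and the YAP target Ccn1 one of -0.80 (limma adjusted p = 2.74e-16), both under the cut-off.

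The CCN proteins share a thrombospondin-type repeat with Thbs1 and were split in direction. Here, after their values were seen, all 6 are given. Ccn2, also known as connective tissue growth factor, rose with a log2 fold change of 3.26, its mean being 2586 ± 80.5 (SD, n = 3) normalized counts in the control and 24825 ± 1291 (SD, n = 3) in the dexamethasone libraries, and the scarce Ccn6 rose with 1.68. Ccn3, Ccn4 and Ccn5 fell, with log2 fold changes of -2.02, -2.48 and -1.70. The other genes of the list called were Smoc2, a Sparc relative, at 3.76 from at most 7.91 normalized counts in the control libraries (2.72 with a pseudocount of 8), the matrilin Matn4 at -2.78 and the tenascin Tnxb at -1.35. The tenascin Tnr had a log2 fold change equal to 0.51 (limma adjusted p = 0.0467) with overlapping groups. Spp1 and Ccn2 were therefore opposite in direction to the thrombospondins, Tnc and Sparc.

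**Figure D5:**
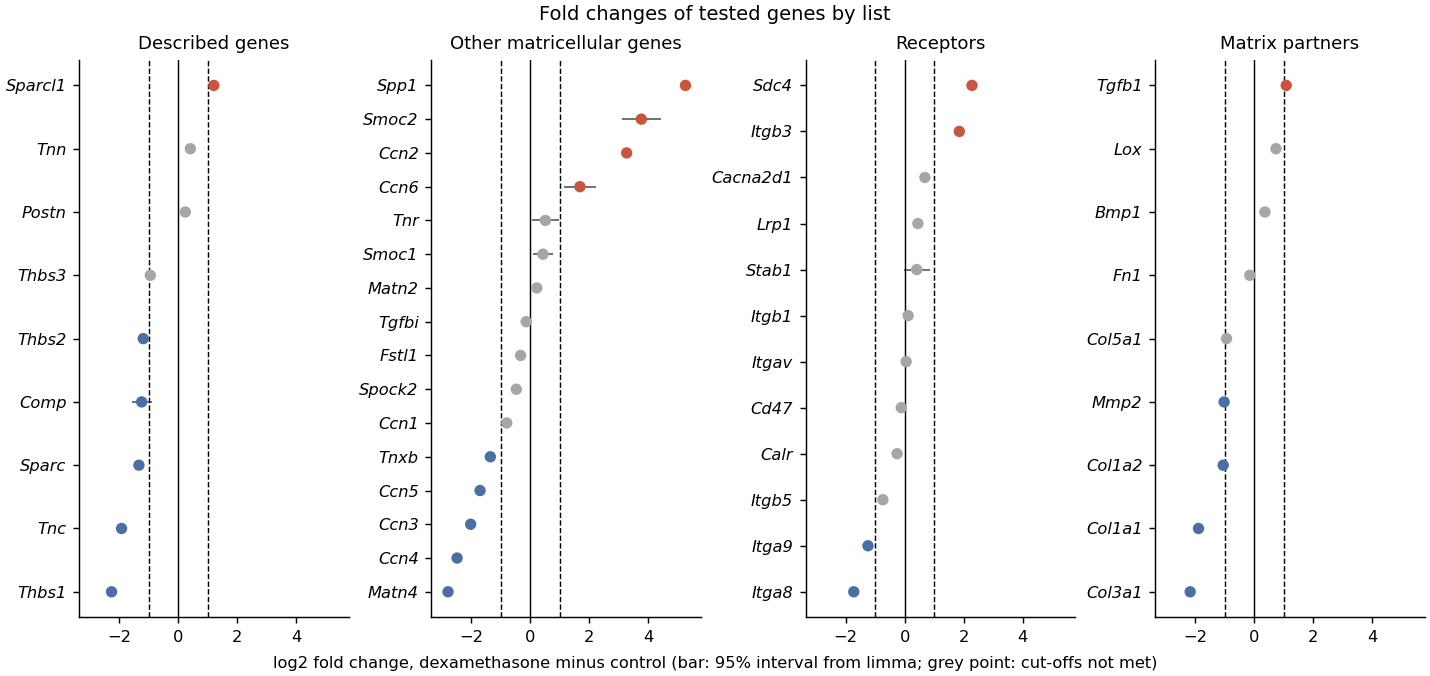
Log2 fold changes, dexamethasone minus control (horizontal axes), of the tested genes of the described set and of the lists of other matricellular genes, receptors and matrix partners, with 95% intervals from limma. Red and blue points are genes called higher and lower, grey points did not meet the cut-offs, which the dashed lines mark at 1 in each direction. The widest spread is among the other matricellular genes, from Matn4 at -2.78 to Spp1 at 5.25.

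Of 15 receptors and binding partners on the cell surface, 12 were tested, 2 were called higher and 2 lower, with a median log2 fold change of 0.08. The most abundant were Lrp1, Itgb1 and Calr. Lrp1, the endocytic receptor that takes up Thbs1 and Thbs2, had a log2 fold change equal to 0.45 (limma adjusted p = 9.32e-09), with means of 133769 ± 3989 (SD, n = 3) in the control and 182228 ± 8094 (SD, n = 3) in the dexamethasone libraries. The integrin β1 gene Itgb1 was at 0.11 and calreticulin (Calr), which binds Thbs1 at the cell surface, at -0.26, and all these were under the cut-off. The genes called, named after their values were seen, were the heparan sulfate proteoglycan Sdc4 (2.28) and the αvβ3 subunit Itgb3 (1.85), which rose, and the tenascin-binding integrin subunits Itga8 (-1.72) and Itga9 (-1.24), which fell. The integrin αv gene Itgav had a log2 fold change equal to 0.05 (limma adjusted p = 0.236), which was -0.07 at equal totals and -0.02 after quantile normalization. Cd47 was at -0.12, while Cd36 had at most 3 reads in every library.

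Of 10 matrix proteins and enzymes that the members bind, 9 were tested, 1 was called higher and 4 lower, with a median log2 fold change of -0.94. Fibronectin (Fn1), the ligand of tenascins and periostin, had a log2 fold change equal to -0.15 (limma adjusted p = 0.0744), with 937876, 972117 and 1009930 normalized counts in the control libraries and 938391, 855576 and 844472 in the dexamethasone libraries. The groups overlapped. The type I collagen genes fell, Col1a1 with a log2 fold change equal to -1.88 (limma adjusted p = 1.24e-18) and Col1a2 with -1.05 (limma adjusted p = 1.13e-12), the latter at -0.995 after quantile normalization. Of the other genes of the list, chosen after their values were seen, Col3a1 fell with -2.16 and Mmp2 with -1.02. Mmp2 was at -0.9995 without control replicate 2 and at -0.987 without dexamethasone replicate 2. Tgfb1, whose latent product Thbs1 activates, rose with 1.09, but was at 0.97 at equal totals and 0.90 after quantile normalization. The crosslinking enzyme Lox, which Postn helps to activate through BMP1, was at 0.74, and Bmp1 at 0.36.

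Of the 3 tendon markers tested, 2 were called lower, and of the 6 smooth muscle and pericyte markers 1 was called lower and none higher. The summed level of the 3 tendon markers in the table was 167398 to 179186 normalized counts in the control and 71990 to 78267 in the dexamethasone libraries, most of it from fibromodulin (Fmod, log2 fold change -1.24). The tendon transcription factor Scx fell with -2.99, whereas Mkx was at 0.44. The 6 smooth muscle and pericyte markers summed to 170102 to 179448 in the control and 42290 to 46205 in the dexamethasone libraries, with Acta2, the one called, at -3.54. The median log2 fold change of that list was -0.01. Pdgfrb and Cspg4 of that list were at -0.08 and 0.43, and Tagln, chosen after its values were seen, was at 0.06 (-0.05 at equal totals), with only 50.0 to 76.3 normalized counts in every library. Myh11 and Rgs5, chosen likewise, were at -0.89 and 0.72, and Myh11 passed the cut-off at equal totals and without control replicate 3 (-1.06) or dexamethasone replicate 3 (-1.25). The part of such cells in the lower levels of Thbs1, Tnc, Sparc and Comp was not tested.

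The summed level of cartilage markers was higher with dexamethasone. Of the 6 chondrocyte markers 3 were tested, 2 of them called higher and 1 lower. The 6 chondrocyte markers summed to 6243 to 6698 normalized counts in the control and 22206 to 25061 in the dexamethasone libraries, most of it from Sox9 in both groups. Sox9 had a log2 fold change of 1.92, Col2a1 of 1.90 and Hapln1 of -1.42. Acan and Col10a1, chosen after their values were seen, were at no more than 6.54 and 14.7 normalized counts in any library. Of 6 osteocyte markers, 4 were tested and 1 was called, Dmp1 with 7.16, while Phex and Pdpn were at 0.60 and 0.68. Mepe, chosen after its values were seen, was at -0.77 (limma adjusted p = 0.0749).

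The summed level of the endothelial markers was low in both groups and higher with dexamethasone. The 6 of 7 in the table summed to 380 to 410 normalized counts in the control and 464 to 506 in the dexamethasone libraries, most of it from Kdr (log2 fold change 0.25). Of the 4 tested, Esam was called higher (1.20), with 11, 21 and 14 reads in the control and 32, 34 and 27 in the dexamethasone libraries. Pecam1 was at 0.74, or 0.47 without control replicate 1, with 11, 18 and 22 reads and 31, 26 and 18 reads. Tek, chosen after its values were seen, was at -0.75 (limma adjusted p = 0.146) with overlapping groups. Cdh5 and Tie1, with at most 3 reads in every library, were not tested. The blood cell markers summed to 6694 to 6955 and 8098 to 8586, mostly from Arhgdib (0.15), with 2 of the 5 tested called higher, Itgb2 and Cd53 (3.20 and 4.11), and 2 called lower. The latter, Laptm5 and Coro1a, chosen after their values were seen, were at -1.49 and -1.77, or -0.92 and -0.9996 with a pseudocount of 8. Coro1a also lost its call without the limma trend (limma adjusted p = 0.0634). Ptprc of the same list, chosen likewise, had only 2 to 5 reads per library and was not tested. The skeletal muscle markers summed to 55.4 to 73.4 and 36.0 to 54.4 (Acta1 at -1.56, Mylpf at 0.33), and the adipocyte markers to 8.79 to 9.18 and 16.4 to 21.9, none of the latter being tested. The higher adipocyte sum came from Cfd, named after its values were seen, with means of 2.49 in the control and 16.9 in the dexamethasone libraries. Adipoq (4.03 and 1.39) and Plin1 (2.41 and 1.02) went the other way, with overlapping groups. The part of endothelial, blood, muscle and fat cells in the members' levels was not tested.

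In the sense orientation, the sequences of the members could be told apart from those of other genes. Every 75-base stretch of each member's transcripts, read in that orientation, was found in no transcript of another annotated gene. The opposite orientation was not searched. Genes on the opposite strand overlapped 3.43% of the exon bases of Thbs1, 6.59% of those of Thbs3 and 2.26% of those of Tnc, and none of those of the other measured members, and the strand setting of the count is not given in the sources used here.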

How the data were processed

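Bone cells of 3 control and 3 dexamethasone-treated mice or pools were profiled with a stranded mRNA kit. The authors aligned and counted reads per gene with STAR 2.7.10a (GRCm39 per the processing notes) and used DESeq2 1.36.0 for normalization. What they deposited is a signal, the read count divided by a size factor per library. For 100% of the values whole reads were recovered (tolerance 0.01 reads), and 72596611 to 89910728 reads per library gave the depth, so that 3 reads was the floor. Symbols came from GENCODE M21 (28087 of 29616 genes). Genes with a mean of at least 10 were tested with limma 3.58.1 (trend) on log2(normalized count + 1), with Benjamini-Hochberg adjustment over 17442 genes. The pseudocount makes the fold changes of scarce genes smaller. The cut-offs, an adjusted p under 0.05 and a log2 fold change of 1, were those of the study. Genes were named by rule: all 10 members, the 3 genes of highest mean in each list, and the 3 genes nearest to the members with the largest rise and fall. The members, lists and tests were chosen with earlier results of these data known. Alternatives were other pseudocounts, filters, scalings and limma settings, the count models of edgeR 4.0.16 and DESeq2 1.42.0 in R 4.3.3, fitted to recovered reads, a replicate block and leaving out each library. On simulated counts of 17442 genes with 200 changed, limma recovered 97.5%, edgeR 98% and DESeq2 94.5%. Replicate libraries differed by more than sampling noise (chi-square per degree of freedom 3.52 to 29.6). Sost, Fgf23, Tnmd, Kera, Emcn and Spock3 were not analysed here, and 1 marker list is not reported here. The columns of all 6 libraries were used.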

Additional observations from a re-analysis of the deposited data

How the results depend on the processing

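Over 16 alternatives, the fold changes of the 9 measured members kept their direction, and 8 of the 9 kept their side of the cut-offs. The exception was Thbs3, which gained the call at equal totals and after quantile normalization, for 7 members called there, while requiring a mean of at least 100 left 5, because Comp was not tested. With the replicate block 6 members were called, as without it, and no count of the other lists changed. The libraries' numbers gave no sign of pairing, since deviations of libraries with the same number correlated at -0.0999, -0.105 and -0.0199. Among the matrix partners, 5 were called, but 3 after quantile normalization, where Tgfb1 and Col1a2 missed the cut-off, and 4 to 5 with 1 library left out. The other matricellular genes called were 7 to 10, and the receptors 4 under every alternative. Using the union of exons as the length, the differences in thrombospondin share were -16.8 points for Thbs1, 15.8 for Thbs2 and 0.972 for Thbs3. Of 1341 fold changes of 85 genes under alternatives, 9 lost and 6 gained a call, among the losses Esam at 0.90 with a pseudocount of 8. The gains included Col5a1 at -1.05 at equal totals, and 5 values reversed: Arhgdib at -0.0569 after quantile normalization, Itgav at -0.0657 at equal totals and -0.0159 after quantile normalization, and Tagln at -0.0484 at equal totals and from -0.126 (without dexamethasone replicate 1) to 0.175 with 1 library left out. Over all genes, 2037 of 17442 were called higher and 1857 lower, against 1350 and 820 of the 12021 genes with a mean of at least 100. With 3 libraries a group, the exact tests of shares and ratios cannot pass 0.05, and Comp is the member that depth limits.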
